A study of Rattus norvegicus with 23 samples.

Results

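Glucose uptake, glycolysis and the genes induced by lack of oxygen were followed across both rat kidney cell types. The set holds 36 genes, listed by name from general knowledge of the pathway and chosen with earlier results of these data known. It covers glucose transporters, the enzymes of glycolysis, the regulators of phosphofructokinase and a pair of opposing enzymes. It also covers the hypoxia-inducible factor (HIF) with its hydroxylases and targets. A row with the same gene symbol was found for 35 of the 36 genes among the 30452 rows of the count table, and Pgk1 was not analysed here. Of these, 33 passed the filter for sufficient counts that 14777 genes passed in all. Fbp1 and Epas1 did not pass it and are given by their counts only.

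Cells take up glucose through transporters of the Slc2a family, and glycolysis splits it to pyruvate, yielding ATP and, with lactate dehydrogenase, acid. Phosphofructokinase is the committed and most tightly regulated step, and its activity falls when protons accumulate. HIF is a transcription factor whose alpha subunit is degraded in oxygenated cells after hydroxylation by the Egln enzymes, and it switches on many glycolysis genes together with genes of blood vessel growth, mitochondrial removal and collagen maturation.

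NRK-52E cells are an epithelial cell line and NRK-49F cells a fibroblast cell line, both established from normal rat kidney, so that each cell type is represented by a single line. After 24 h in medium without serum, the cells spent 48 h at pH 7.4 or at pH 6.0, called acidosis here. No gene was altered and no other agent was added. There were n = 6 samples for each pH of NRK-52E cells, n = 6 for NRK-49F cells at pH 7.4 and n = 5 at pH 6.0. The labels divide them into sample groups 1 and 3 of NRK-52E and 4 and 6 of NRK-49F, each with both pH values, without saying what a sample group is.

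The 23 libraries held between 16412564 and 34250535 counts. Levels are given as FPM, fragments per 1000000 counts of the library, after the library sizes had been scaled with edgeR's TMM factors. They are not divided by transcript length, so a level is compared between samples and not between genes. The labelled cell types were checked on marker genes. Of 12 epithelial markers 10 had a row and only Krt7 and Krt8 passed the filter, and Krt8 was lower in NRK-52E (499 FPM at pH 7.4) than in NRK-49F (839 FPM), while Krt7 was higher (21.8 against 1.42 FPM). Cdh1, Epcam, Cldn3, Cldn4, Cldn7 and Esrp1 were near or at 0 in both lines, so the table does not show the usual epithelial junction genes in NRK-52E. Of the 12 fibroblast markers, 11 passed the filter and 10 were lower in NRK-52E at pH 7.4, with Col1a2 at 13.5 against 4476 FPM, but Col3a1 was higher (6149 against 1212 FPM), and Thy1 was near or at 0 in both. In NRK-52E, 10 of the 11 were called lower at pH 6.0 (36.6% of all genes), as were Krt7 and Krt8. Many of these falls start from little RNA. The 10 markers with at least 10 FPM in NRK-49F were at a median of 0.954% of their NRK-49F level in NRK-52E at pH 7.4. In NRK-49F, 3 of the 11 were called lower at pH 6.0 (14.4% of all genes), and so were Krt7 and Krt8. The summed level of the fibroblast markers in NRK-52E, at pH 7.4 mostly Col3a1, ranged from 4985 to 8162 FPM at pH 7.4 and from 1842 to 3120 FPM at pH 6.0. That of the epithelial markers ranged from 463 to 683 FPM and from 200 to 265 FPM. In NRK-49F the fibroblast markers summed to 10892 to 13945 FPM at pH 7.4 and to 7418 to 10044 FPM at pH 6.0, and the epithelial markers to 669 to 1208 and to 439 to 697 FPM. In such bulk samples fewer cells of a type and less RNA per cell cannot be told apart. Replicate A035 of NRK-52E at pH 7.4 stood apart in 7 members, as listed in the closing section.

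Acidosis changed most members in NRK-52E cells in both directions, and fewer members in NRK-49F cells almost always upwards. In NRK-52E, 23 of 33 tested members (69.7%) were regulated (quasi-likelihood test of edgeR, p adjusted after Benjamini and Hochberg and under 0.05), 11 higher and 12 lower. Among all tested genes 61.2% were regulated in this line, 24.7% higher and 36.6% lower, so the members' share was close to the background. Of the 12 lower members, 4 (Pfkfb1, Egln3, Adm and Ndrg1) had a median under 1 FPM at both pH values in NRK-52E, and Egln3, Adm and Ndrg1 entered the test through their reads in NRK-49F. In NRK-49F, 13 members (39.4%) were regulated, 12 higher and only P4ha2 lower, where 28.9% of all genes were regulated, 14.5% higher and 14.4% lower. The median log2 fold change of the members was -0.05 in NRK-52E, where that of all genes was -0.12. In NRK-49F it was 0.24 against 0.00 for all genes. Both pH values did not overlap for 12 members in NRK-52E (38.6% of all genes) and for 7 in NRK-49F (20.6% of all genes).

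Taken singly, sample group 1 of NRK-52E had 17 regulated members (48.9% of all genes) and sample group 3 had 22 (57.4% of all genes), whereas NRK-49F had 8 in sample group 4 (23% of all genes) and 9 in sample group 6 (21.2% of all genes). With sample group as a block in the fit, 23 members were regulated in NRK-52E (63.6% of all genes) and 16 in NRK-49F (33.4% of all genes), where Hk1, Gpi and Bnip3 were added. Without replicate A035 the numbers were 23 (61.6%) and 14 (30.4%). Without replicate A021 of NRK-52E at pH 7.4, they were 21 (58.6%) and 13 (28.8%). When the log2 fold change had to exceed 1 in size by the test itself, there remained 5 members in NRK-52E (13.4% of all genes), namely Hk2 and Aldoc upwards and the near-absent Egln3, Adm and Ndrg1 downwards. In NRK-49F, Pfkp and Vegfa remained (1.99% of all genes).

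Regulated members were shared in part. Slc2a1, Hk2, Aldoc, Pgam1, Eno2, Pfkfb3 and Vegfa were higher at pH 6.0 in both lines, so 7 members were regulated upwards in both (6.94% of all genes) and 0 downwards in both (9.39% of all genes). Both lines were set against their own samples at pH 7.4. Tpi1 and Adm were called lower in NRK-52E and higher in NRK-49F (4.18% of all genes were called in opposite directions), and the call of Adm in NRK-52E rests on few reads, at most 27 counts per library at pH 7.4 and 1 at pH 6.0. A further 14 members passed the threshold in NRK-52E alone, 4 in NRK-49F alone (Pfkp, Aldoa, Pkm and P4ha2) and 6 in neither. The share of all genes called in 1 line alone was not counted, so these numbers are a description only. Of all genes, 61.2% were called in NRK-52E and 28.9% in NRK-49F.

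**Figure D1:**
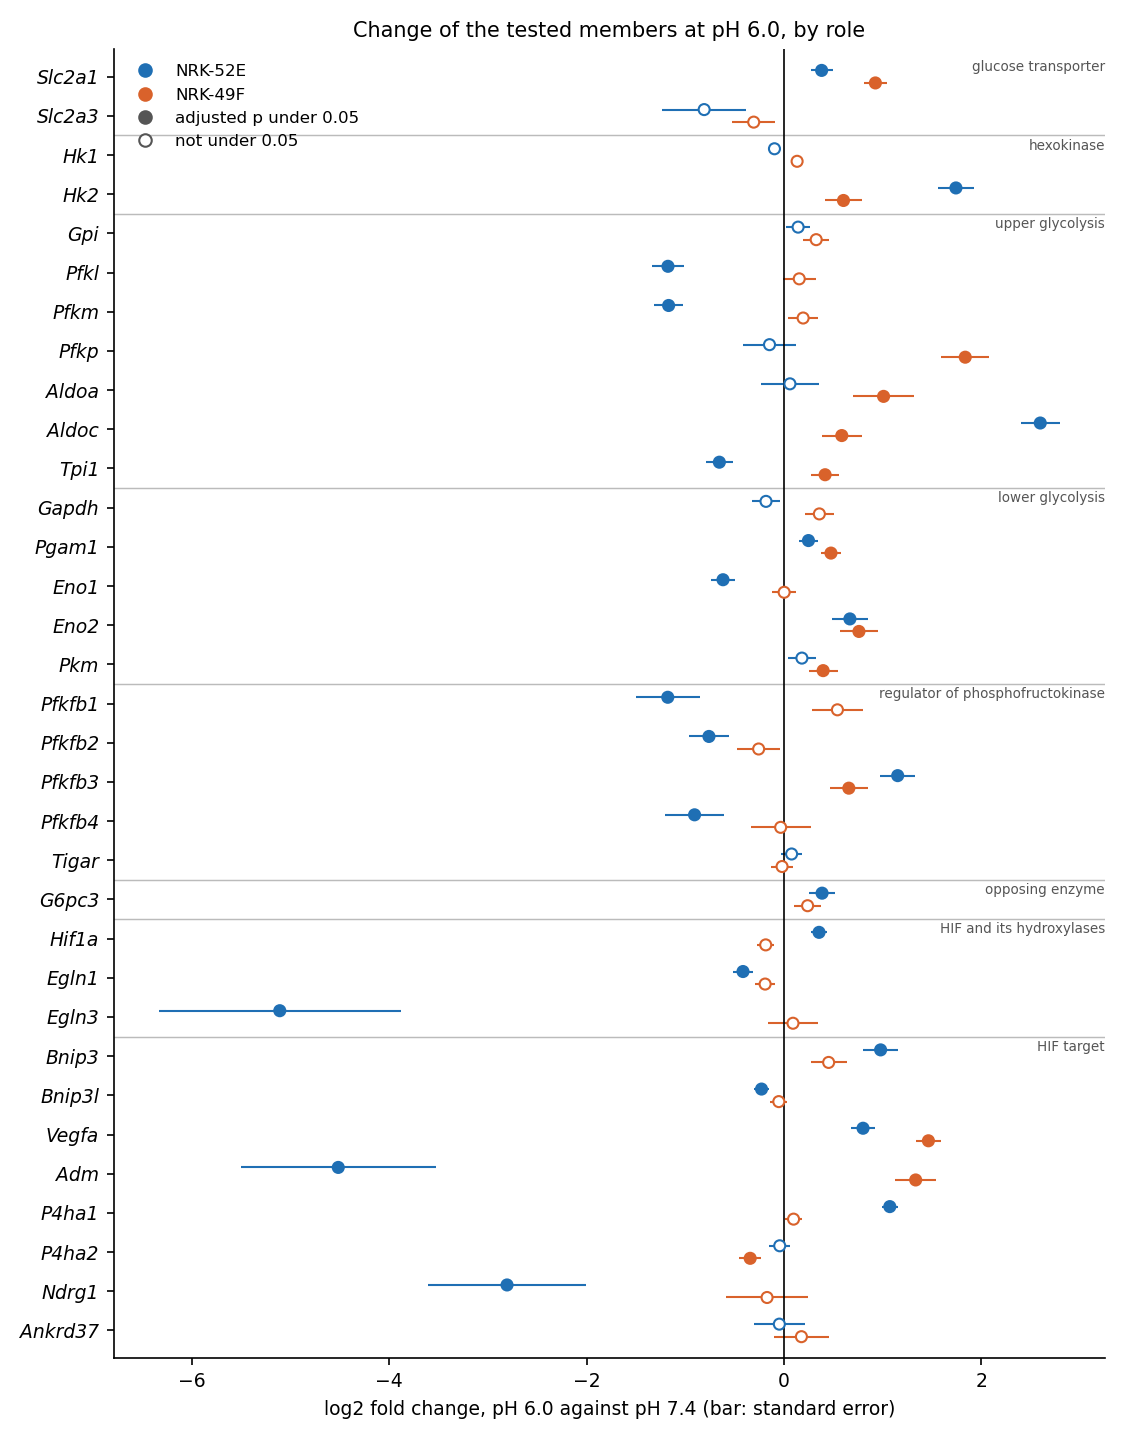
Log2 fold change of each tested member from pH 7.4 to pH 6.0 (x axis) in NRK-52E (blue) and NRK-49F (orange), with the standard error as a bar and grey lines between roles. Filled points have an adjusted p under 0.05: 23 in NRK-52E, on both sides of 0, and 13 in NRK-49F, of which P4ha2 alone lies below 0, while the blue points of Egln3, Adm and Ndrg1 far to the left belong to genes with almost no RNA in NRK-52E.

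Promoters of the members that rose in either line and held a match are shown, other than the uncertain Aldoa, because HIF binds DNA at the core ACGTG or GCGTG. RefSeq promoters of build GRCr8 were matched by symbol to 32 of the 36 members, with 37 windows. Slc2a3, Pgk1, Bnip3l and Ndrg1 had no entry. The 250 bases before the start site were searched for ACGTG and GCGTG on both strands (also read as CACGT and CACGC), which overlap in CACGTG. A match was present in 21 of the 37 windows (56.8%), that is in 20 of the 32 genes, and in 36.7% of all 33469 promoters. Counted by gene, 10866 of all 27457 genes held a match. A match is a description of these letters and not of a bound site. The stretches below are 60 bases each, 5′ to 3′ in the direction of the gene, with every match in capitals.
Slc2a1, chr5:138002462-138002521, plus strand: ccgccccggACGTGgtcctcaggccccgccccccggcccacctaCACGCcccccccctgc
Aldoc, chr10:63715484-63715543, plus strand: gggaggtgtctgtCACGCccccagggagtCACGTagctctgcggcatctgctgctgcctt
Pgam1, chr1:250673009-250673068, plus strand: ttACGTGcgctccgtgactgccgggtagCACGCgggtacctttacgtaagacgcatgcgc
Eno2, chr4:159267328-159267387, minus strand: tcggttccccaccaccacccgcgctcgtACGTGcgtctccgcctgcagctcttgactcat
Pfkfb3, chr17:71944864-71944923, plus strand: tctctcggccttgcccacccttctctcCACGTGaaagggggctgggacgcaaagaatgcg
Bnip3, chr1:203155021-203155080, minus strand: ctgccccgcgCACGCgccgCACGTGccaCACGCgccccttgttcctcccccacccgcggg
P4ha1, chr20:27844919-27844978, plus strand: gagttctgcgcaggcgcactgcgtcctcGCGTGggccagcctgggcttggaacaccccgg
G6pc3, chr10:87647089-87647148, plus strand: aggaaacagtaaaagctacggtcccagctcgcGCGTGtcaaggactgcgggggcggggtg
Hif1a, chr6:98359706-98359765, plus strand: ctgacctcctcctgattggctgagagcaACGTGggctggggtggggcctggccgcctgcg
Pfkp, chr17:68639742-68639801, plus strand: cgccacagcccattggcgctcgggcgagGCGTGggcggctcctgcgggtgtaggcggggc
The first 5 of these genes were higher at pH 6.0 in both lines. The windows of Hk2 and Vegfa, also higher in both, held no match. Neither did those of Adm, Tpi1 and Pkm, which were higher in NRK-49F. Matches were also present in genes that fell in NRK-52E, such as Pfkl, Pfkm, Eno1 and Egln1.

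Of the glucose transporters, Slc2a1 (GLUT1, the widespread basal transporter, chromosome 5) rose in both lines. In NRK-52E it ranged from 69.7 FPM over a median of 82.3 to 92.9 FPM at pH 7.4, and from 81.4 over 104 to 132 FPM at pH 6.0. In NRK-49F it lay between 38.7 and 43.5 FPM at pH 7.4 (median 40.2) and reached 99.2, 77.8, 70.4, 68.7 and 69.2 FPM in the 5 samples at pH 6.0. The pH values overlapped in NRK-52E over both sample groups, but not within either group, and did not overlap in NRK-49F. The log2 fold change was 0.38 in NRK-52E (standard error 0.11, adjusted p = 0.0045, edgeR) and 0.93 in NRK-49F (standard error 0.12, adjusted p = 1.67e-06, edgeR). The rise was larger in NRK-49F by 0.54 on the log2 scale (adjusted p = 0.00856, edgeR). Slc2a3 (GLUT3, a high-affinity transporter best known from neurons) was a gene of NRK-49F, with 34.7 ± 4.41 FPM at pH 7.4 and 28.1 ± 5.02 FPM at pH 6.0 (SD), against 0.468 ± 0.171 and 0.228 ± 0.225 FPM in NRK-52E. Its change did not pass the threshold in either line (log2 fold change -0.81, adjusted p = 0.103, and -0.31, adjusted p = 0.316, edgeR), but in NRK-52E it did with the likelihood ratio test (adjusted p = 0.0266), DESeq2 (adjusted p = 0.0406) and thinned libraries (adjusted p = 0.0462), and without replicate A026 (-1.60, adjusted p = 0.00312).

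Hexokinases trap glucose in the cell by phosphorylating it. Hk2, the inducible form, rose in both lines, and most in NRK-52E. There it ranged from 5.94 over 12.9 to 15.5 FPM at pH 7.4 and from 33.97 over 42.8 to 43.8 FPM at pH 6.0, without overlap. In NRK-49F, levels of 12.9 to 20.8 FPM (median 17.0) stood against 16.9, 29.9, 27.9, 23.6 and 31.2 FPM, where replicate A042 remained within the range of pH 7.4. The increase was 3.35-fold in NRK-52E (log2 fold change 1.74, standard error 0.18, adjusted p = 1.46e-08, edgeR) and 1.52-fold in NRK-49F (0.60, standard error 0.18, adjusted p = 0.0159, edgeR), and both changes differed (difference 1.14, adjusted p = 0.000991, edgeR). Hk1, the housekeeping form, was at 82.0 ± 5.00 and 76.7 ± 6.51 FPM in NRK-52E and at 169 ± 5.48 and 185 ± 8.70 FPM in NRK-49F, and its log2 fold changes of -0.10 and 0.13 did not pass the threshold, though in NRK-49F Hk1 did with sample group as a block (0.14, adjusted p = 0.0457).

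The phosphofructokinase subunits differed between the lines. Pfkl and Pfkm, named for liver and muscle, fell in NRK-52E, and Pfkp, the platelet form, rose in NRK-49F. Pfkm (chromosome 7) ranged from 125 over 128 to 147 FPM at pH 7.4 in NRK-52E and from 39.6 over 55.1 to 80.7 FPM at pH 6.0. Pfkl (chromosome 20) ranged from 85.2 over 94.1 to 128 FPM and from 29.5 over 43.3 to 61.0 FPM. Neither gene showed any overlap between the pH values. The log2 fold changes were -1.17 for Pfkm (standard error 0.15, adjusted p = 3.05e-07, edgeR) and -1.18 for Pfkl (standard error 0.16, adjusted p = 1.12e-06, edgeR). In NRK-49F both genes had log2 fold changes of 0.19 and 0.15 that did not pass the threshold, with means of 194 ± 15.6 and 222 ± 14.6 FPM for Pfkm and of 142 ± 22.4 and 158 ± 27.9 FPM for Pfkl. The difference between the lines was -1.36 for Pfkm (adjusted p = 1.55e-05, edgeR) and -1.33 for Pfkl (adjusted p = 6.39e-05, edgeR).

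Pfkp (chromosome 17) showed the highest rise of the members in NRK-49F. It ranged from 69.5 over 82.4 to 91.6 FPM at pH 7.4 and reached 309, 267, 300, 310 and 277 FPM at pH 6.0, so that the lowest sample at pH 6.0 was far above the highest at pH 7.4. This was a 3.57-fold increase (log2 fold change 1.84, standard error 0.24, adjusted p = 3.33e-06, edgeR). In NRK-52E it was at only 4.52 ± 1.13 and 4.05 ± 2.51 FPM, and its log2 fold change was -0.15 (adjusted p = 0.662, edgeR). In the latter line both sample groups differed, as described below.

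The members of the following steps also went apart. Gpi, which converts glucose phosphate to fructose phosphate, had log2 fold changes of 0.14 and 0.33 that did not pass the threshold, but with sample group as a block Gpi did in NRK-49F (0.33, adjusted p = 0.0311). Aldoc (aldolase C, chromosome 10), which splits fructose bisphosphate, had the largest log2 rise of the members in NRK-52E. There it went from 4.15 to 6.62 FPM (median 5.30) to a range from 22.5 to 42.4 FPM (median 34.1). That was a 6.05-fold increase without overlap (log2 fold change 2.60, standard error 0.20, adjusted p = 8.62e-11, edgeR). In NRK-49F it went from a range of 3.45 to 6.15 FPM to 11.3, 7.44, 7.27, 6.03 and 5.56 FPM, with overlap, and its log2 fold change of 0.59 (adjusted p = 0.0329, edgeR) no longer passed the threshold without replicate A042 (0.39, adjusted p = 0.157), or without A039, A040, A051, A053 or A054. The rows for Aldoa held very few reads. The one with that symbol had 9 to 54 counts and a second one, listed as Aldoa.1, had 29 to 213 counts, both on chromosome 1, although aldolase A is an abundant enzyme. The value of Aldoa (log2 fold change 1.01 in NRK-49F, adjusted p = 0.0174, edgeR, and 0.06 in NRK-52E) is therefore uncertain. It did not pass the threshold without replicate A055 (adjusted p = 0.0597) or with all libraries thinned to the smallest (0.76, adjusted p = 0.11).

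Tpi1 (triosephosphate isomerase, chromosome 4) moved in opposite directions. In NRK-52E it fell from a range of 152 to 230 FPM (median 180) to one of 94.6 to 138 FPM (median 116), without overlap (log2 fold change -0.66, standard error 0.14, adjusted p = 0.000249, edgeR). Within sample group 1 it was -0.34 (adjusted p = 0.122) and within sample group 3 it was -0.96 (adjusted p = 0.00014). In NRK-49F it ranged from 529 over 583 to 850 FPM at pH 7.4 and was at 1101, 732, 837, 911 and 656 FPM at pH 6.0. The log2 fold change in NRK-49F was 0.42 (standard error 0.14, adjusted p = 0.0312, edgeR), it lost the call without any one of replicates A039, A040, A042, A051, A053, A054 or A055, and it was 0.30 without A042. The difference between the lines was -1.07 (adjusted p = 0.000136, edgeR).

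In lower glycolysis, 3 of 5 members rose in NRK-49F (14.5% of all genes) and 2 in NRK-52E (24.7% of all genes), where Eno1 fell. Eno2 (enolase 2, the form of neurons, chromosome 4) rose in both lines. In NRK-52E it ranged from 72.4 over 97.9 to 121 FPM at pH 7.4 and from 94.0 over 154 to 221 FPM at pH 6.0. In NRK-49F it ranged from 179 over 190 to 197 FPM at pH 7.4 and was at 326, 342, 313, 314 and 304 FPM at pH 6.0. The pH values overlapped in NRK-52E with both sample groups together, but not within either group, and did not overlap in NRK-49F, and the log2 fold changes of 0.67 (standard error 0.18, adjusted p = 0.00272, edgeR) and 0.76 (standard error 0.19, adjusted p = 0.00357, edgeR) differed by -0.09 (adjusted p = 0.812). Eno1, the general enolase, fell in NRK-52E from 605 ± 93.5 to 394 ± 37.3 FPM without overlap (log2 fold change -0.62, standard error 0.12, adjusted p = 8.03e-05, edgeR). In NRK-49F it was at 1120 ± 171 and 1121 ± 193 FPM, a log2 fold change of 0.00.

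Pgam1 (phosphoglycerate mutase) rose from 329 ± 30.01 to 390 ± 37.0 FPM in NRK-52E (log2 fold change 0.25, adjusted p = 0.0276, edgeR) and from 638 ± 56.4 to 887 ± 148 FPM in NRK-49F (0.48, adjusted p = 0.000781, edgeR). The call in NRK-52E was lost without replicate A021, A023 or A026, with adjusted p up to 0.0708. Pkm (pyruvate kinase) rose in NRK-49F from 1041 ± 171 to 1370 ± 318 FPM (0.40, adjusted p = 0.0436, edgeR). In that line replicate A042 was highest at 1857 FPM, and without it the log2 fold change was 0.26 (adjusted p = 0.185). Omitting any one of A039, A040, A051, A053, A054 or A055 also ended the call of Pkm. Gapdh, often used as a reference gene, went from 599 ± 102 to 528 ± 73.3 FPM in NRK-52E and from 2330 ± 456 to 2987 ± 642 FPM in NRK-49F, with log2 fold changes of -0.18 and 0.36 that did not pass the threshold. The difference between both changes of Gapdh was -0.54 (adjusted p = 0.0389, edgeR), a call that was lost with RLE scaling (-0.49, adjusted p = 0.0548) and in 13 of the 23 fits that each left out a replicate.

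Added over 12 enzymes of glycolysis, the level was 3183 ± 430 and 2991 ± 228 FPM in NRK-52E at pH 7.4 and pH 6.0 and 6933 ± 1083 and 8911 ± 1634 FPM in NRK-49F. Pgk1 is missing from the sum and the uncertain Aldoa adds almost nothing. As levels are not divided by transcript length, genes with the most counts, such as Gapdh, Eno1 and Pkm, weigh most, and the total glycolytic RNA is not measured. These sums ranged from 2862 to 4028 and from 2766 to 3277 FPM in NRK-52E, and from 6050 to 8622 and from 7219 to 11287 FPM in NRK-49F, so both pH values overlapped in each line.

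**Figure D2:**
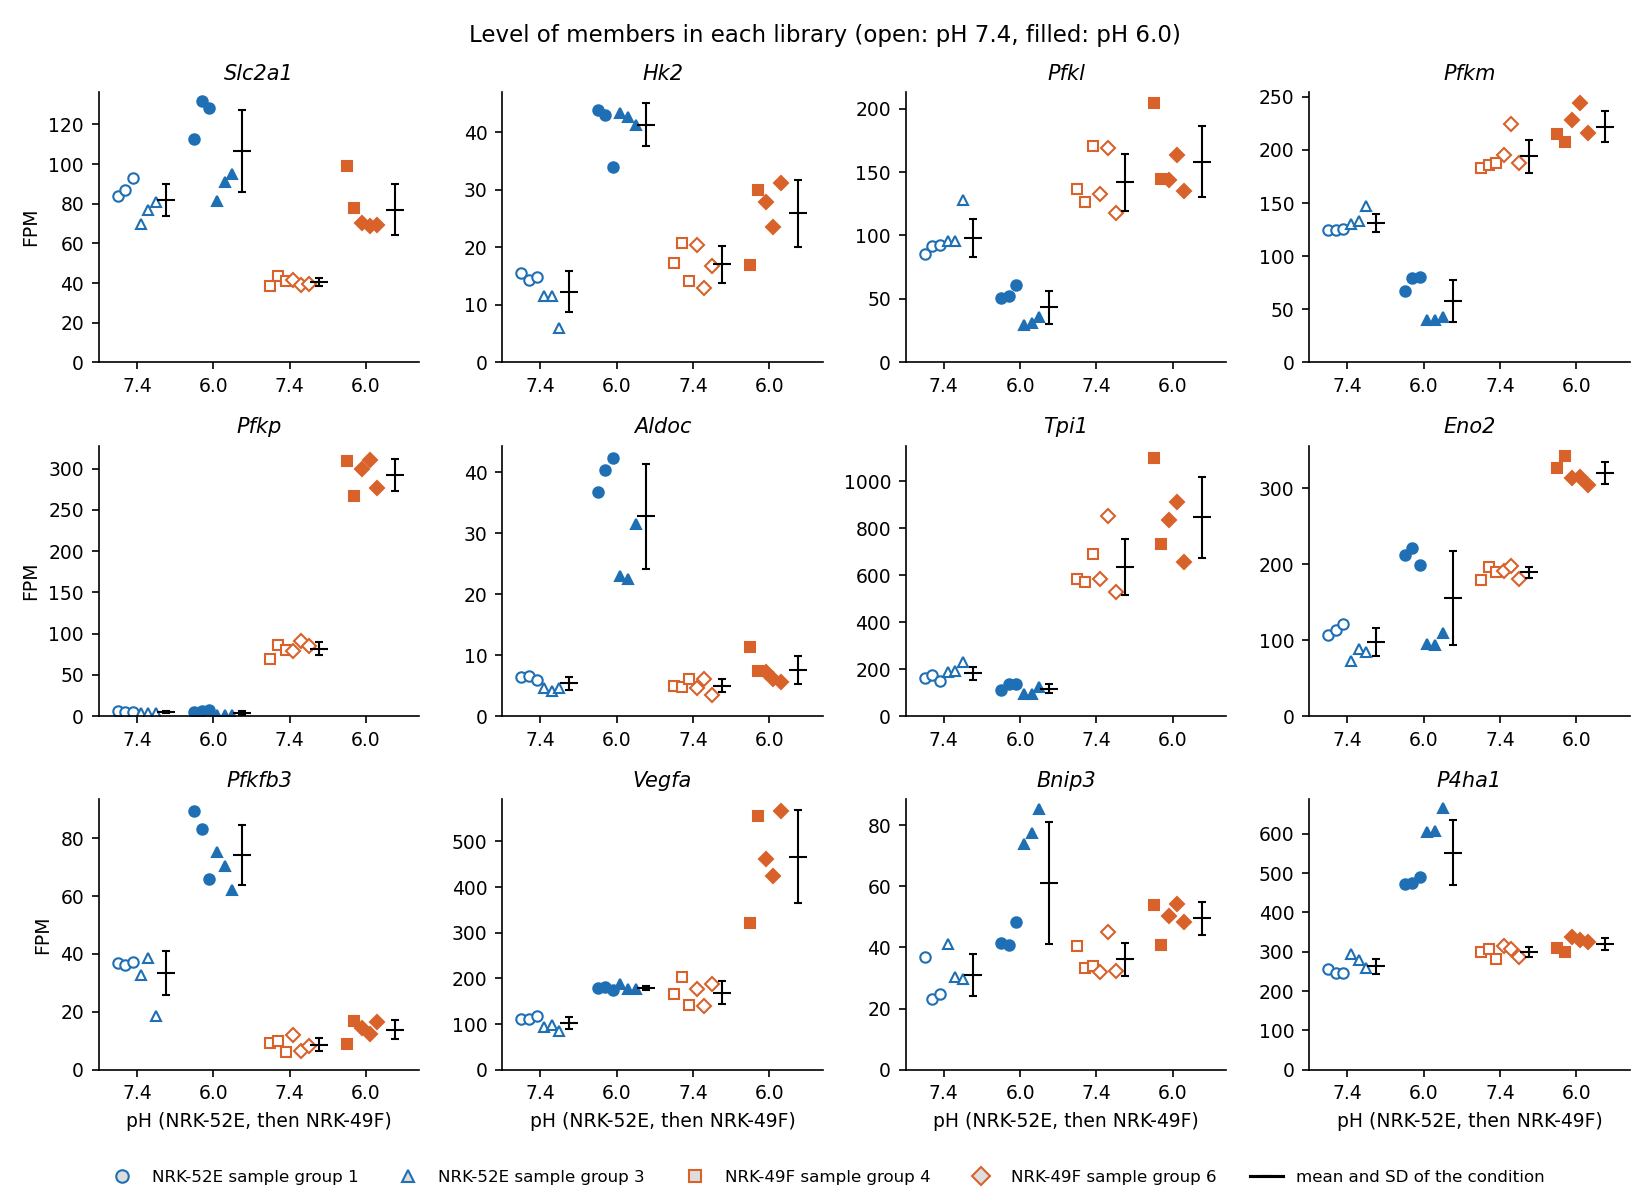
FPM (y axis, linear from 0) of 12 members in each library by cell line and pH (x axis), with open symbols for pH 7.4, filled symbols for pH 6.0, a symbol shape for each sample group and the mean with SD in black. Pfkl and Pfkm fell in NRK-52E and Pfkp rose in NRK-49F without overlap, and in NRK-52E at pH 6.0 the circles of sample group 1 lie above the triangles of sample group 3 for Slc2a1, Pfkl, Pfkm, Pfkp, Aldoc and Eno2 and below them for Bnip3 and P4ha1. For Slc2a1 and Pfkp the circles also lie above the triangles at pH 7.4.

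The Pfkfb enzymes make and degrade the sugar phosphate that activates phosphofructokinase. Only Pfkfb3, the form with the strongest bias towards synthesis, rose, and it did so in both lines. In NRK-52E it ranged from 18.6 over 36.5 to 38.6 FPM at pH 7.4 and from 62.1 over 72.9 to 89.2 FPM at pH 6.0, without overlap (log2 fold change 1.15, standard error 0.18, adjusted p = 4.56e-06, edgeR). In NRK-49F, a range of 6.22 to 12.1 FPM stood against 8.82, 16.7, 14.6, 12.3 and 16.5 FPM (0.66, standard error 0.19, adjusted p = 0.0114, edgeR). Replicate A042 was again the low sample, within the range of pH 7.4. Pfkfb1, Pfkfb2 and Pfkfb4 fell in NRK-52E, with log2 fold changes of -1.18 (adjusted p = 0.00319), -0.76 (adjusted p = 0.00262) and -0.91 (adjusted p = 0.0117, edgeR). Pfkfb2 fell from 16.1 ± 3.23 to 9.52 ± 2.01 FPM, while Pfkfb1 and Pfkfb4 were below 4 FPM in every NRK-52E library. In NRK-49F the log2 fold changes of these 3 genes were 0.54, -0.26 and -0.03 and did not pass the threshold, and that of Pfkfb1 passed it without replicate A052 (0.84, adjusted p = 0.00737). Tigar, a phosphatase that lowers the same activator, had log2 fold changes of 0.08 and -0.02.

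Of the enzymes that oppose glycolysis, G6pc3, a widely expressed glucose-6-phosphatase subunit, rose in NRK-52E from 78.5 ± 10.4 to 102 ± 18.2 FPM (log2 fold change 0.39, adjusted p = 0.0117, edgeR) and had a log2 fold change of 0.24 in NRK-49F (adjusted p = 0.193). Fbp1, the fructose bisphosphatase of gluconeogenic kidney tubules, had between 0 and 3 counts in every library, which is at or under the limit of 3 counts, so its RNA was not detectable at this depth in either line.

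Of HIF and its hydroxylases, Hif1a rose and Egln1 fell in NRK-52E, and none passed the threshold in NRK-49F. Hif1a, the alpha subunit present in most cells, rose in NRK-52E from a range of 67.8 to 96.3 FPM (median 85.2) to one of 99.995 to 114 FPM (median 109), without overlap (log2 fold change 0.35, standard error 0.08, adjusted p = 0.000568, edgeR). In NRK-49F it was at 119 ± 11.6 and 104.8 ± 8.74 FPM (-0.19, adjusted p = 0.106, edgeR), and both changes differed by 0.54 (adjusted p = 0.000698, edgeR). HIF is regulated mainly through protein stability, which these data do not measure. Epas1, the second alpha subunit, had 0 to 11 counts per library and was not tested. Egln1, the main oxygen-sensing hydroxylase, fell in NRK-52E from 49.4 ± 2.52 to 37.0 ± 5.47 FPM without overlap (-0.42, standard error 0.10, adjusted p = 0.000765, edgeR) and had a log2 fold change of -0.19 in NRK-49F (adjusted p = 0.171). Egln3, itself a well-known HIF target, was at 23.1 ± 1.86 and 24.7 ± 2.99 FPM in NRK-49F (0.09, adjusted p = 0.828) and near 0 in NRK-52E.

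Among the 8 HIF targets, 3 were called higher (24.7% of all genes) and 3 lower (36.6%) in NRK-52E, and 2 higher (14.5%) and 1 lower (14.4%) in NRK-49F. Of the 3 lower in NRK-52E, Adm and Ndrg1 were near absent from this line and Bnip3l lost its call in some fits. Vegfa, the growth factor of blood vessels (chromosome 9), was the clearest common response. In NRK-52E it ranged from 85.1 over 104 to 118 FPM at pH 7.4 and from 176 over 178 to 188 FPM at pH 6.0. In NRK-49F it ranged from 139 over 171 to 203 FPM and was at 321, 556, 461, 425 and 567 FPM at pH 6.0. Neither line showed overlap. The increase was 1.74-fold in NRK-52E (log2 fold change 0.80, standard error 0.12, adjusted p = 2.95e-06, edgeR) and 2.76-fold in NRK-49F (1.46, standard error 0.12, adjusted p = 3.90e-09, edgeR). It was larger in NRK-49F by 0.66 on the log2 scale (adjusted p = 0.00299, edgeR). Adm (adrenomedullin, a vasodilating peptide) rose 2.52-fold in NRK-49F, from a range of 55.3 to 64.3 FPM to 166, 148, 152, 150 and 137 FPM, without overlap (log2 fold change 1.33, standard error 0.21, adjusted p = 2.50e-05, edgeR).

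P4ha1 and Bnip3 rose in NRK-52E. P4ha1 (a prolyl hydroxylase of collagen, chromosome 20) ranged from 245 over 257 to 294 FPM at pH 7.4 and from 472 over 547 to 666 FPM at pH 6.0. This 2.103-fold increase had no overlap (log2 fold change 1.07, standard error 0.08, adjusted p = 1.27e-10, edgeR). In NRK-49F it was at 300 ± 12.6 and 320 ± 14.98 FPM (0.10, adjusted p = 0.438), and the difference between the lines was 0.98 (adjusted p = 7.54e-07, edgeR). Its relative P4ha2 was at 286 ± 32.95 and 277 ± 39.04 FPM in NRK-52E (-0.04) and fell in NRK-49F from 202 ± 21.3 to 159 ± 24.6 FPM (-0.34, adjusted p = 0.0219, edgeR). The call of P4ha2 was lost without replicate A039, A041, A054 or A056, with adjusted p up to 0.0641. Bnip3, a receptor for the removal of mitochondria, rose in NRK-52E from 30.97 ± 6.91 to 61.1 ± 19.9 FPM (0.98, standard error 0.17, adjusted p = 3.77e-05, edgeR). In NRK-49F it was at 36.1 ± 5.36 and 49.5 ± 5.49 FPM (0.45, adjusted p = 0.0641), and it passed the threshold with that line fitted alone (0.44, adjusted p = 0.00532) and with sample group as a block (0.45, adjusted p = 0.0181). Bnip3l, of similar function, fell slightly in NRK-52E from 227 ± 5.62 to 194 ± 31.3 FPM (-0.23, adjusted p = 0.0174, edgeR), a call that was lost with that line fitted alone (-0.14, adjusted p = 0.214) and without replicate A036, A037 or A038. Ankrd37, a small HIF target, was below 7 FPM in every library, with log2 fold changes of -0.05 and 0.18.

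Slc2a3, Egln3, Adm and Ndrg1 were nearly restricted to NRK-49F. At pH 7.4, Ndrg1, a stress-responsive differentiation gene, was at 402 ± 38.4 FPM in NRK-49F and at 357 ± 29.4 FPM at pH 6.0 (log2 fold change -0.17, adjusted p = 0.7997, edgeR). In NRK-52E it ranged from 0.0377 over 0.529 to 5.51 FPM at pH 7.4 and from 0 over 0.157 to 0.690 FPM at pH 6.0, with overlap. Egln3 was at most 0.560 FPM in NRK-52E at pH 7.4 and at 0 in all libraries at pH 6.0, and Adm was at most 0.756 and 0.0546 FPM. The fitted calls of a fall in NRK-52E for Egln3, Adm and Ndrg1 (adjusted p = 0.00133, 0.000377 and 0.00419, edgeR) thus rest on a few reads. The mean at pH 7.4 was 1.05-fold the level of 3 counts at pH 6.0 for Egln3 and 1.74-fold for Adm. At pH 7.4 itself, 5 of 6 libraries for Egln3 and 3 of 6 for Adm were at or under 3 counts. These ratios therefore set no lower bound on a fall. Without replicate A021, the mean of Egln3 at pH 7.4 was under that level and that of Adm was 1.06-fold that level. For Ndrg1 the log2 fold change of -2.81 was then -1.44 (adjusted p = 0.0881, edgeR).

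The level of these members in NRK-52E was set beside that of fibroblast markers in the same libraries. Relative to the mean of NRK-49F at pH 7.4, the median of the 10 fibroblast markers with at least 10 FPM there was 2.21% in replicate A021 and 0.213% to 2.21% over NRK-52E at pH 7.4, with a median of 0.954% over libraries. At pH 6.0 it was between 0.0901% and 0.340%, with a median of 0.168%. In replicate A021, Egln3 was at 2.42%, Adm at 1.26% and Ndrg1 at 1.37% of their NRK-49F mean, which are their highest values in NRK-52E. Their medians over NRK-52E libraries at pH 7.4 were 0.432%, 0.336% and 0.132%. Slc2a3 was at 0.653% to 1.86% at pH 7.4 and at 0% to 1.76% at pH 6.0. By this median, A021 was the highest NRK-52E library at pH 7.4, but by the summed marker level it was the lowest (4985 FPM, with A034 highest at 8162 FPM), and Slc2a3 was highest in A022. The summed level at pH 7.4 was mostly Col3a1, the marker that was higher in NRK-52E than in NRK-49F, so it says little about the other markers. The part of fibroblast RNA in these levels was not tested.

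**Figure D3:**
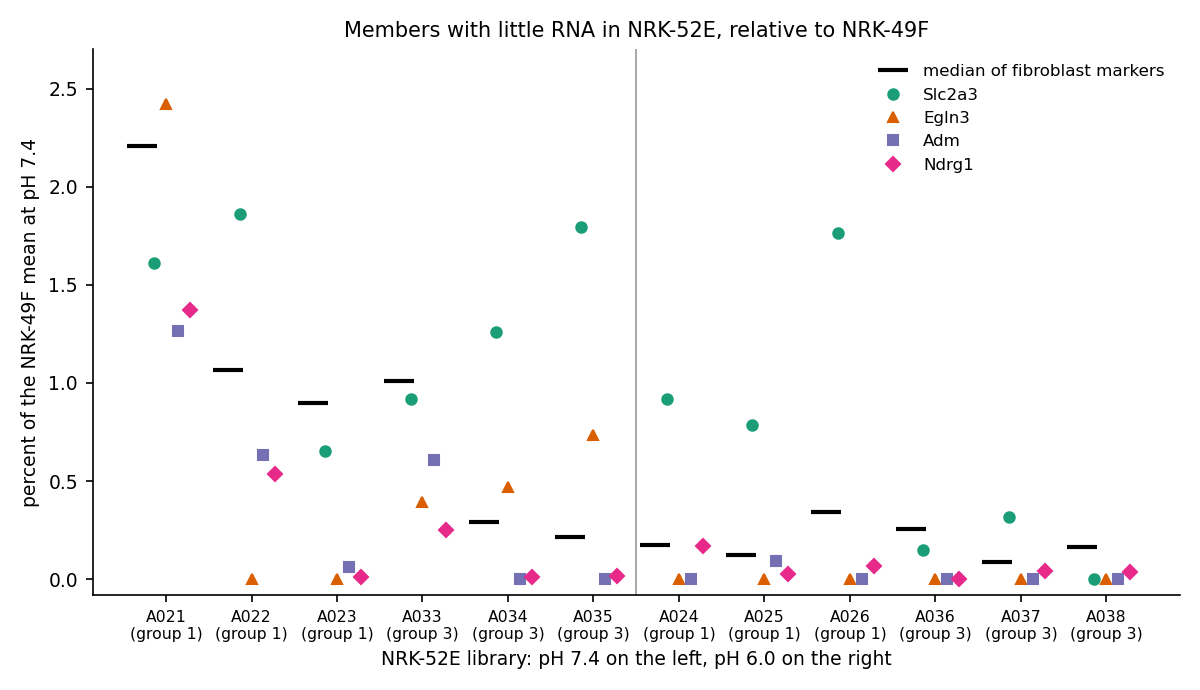
Level of Slc2a3, Egln3, Adm and Ndrg1 in each NRK-52E library as a percent of the NRK-49F mean at pH 7.4 (y axis, linear), with the median of the fibroblast markers as a black bar, for pH 7.4 left and pH 6.0 right of the line. Replicate A021 has the highest marker median (2.21%) and the highest Egln3 (2.42%), Adm (1.26%) and Ndrg1 (1.37%), and no library reaches 2.5%.

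In the test of the difference between the lines in their response, 17 of 33 members differed between the lines, where 41.4% of all tested genes did. Of these, 13 had the lower change in NRK-52E and 4 (Hk2, Aldoc, Hif1a and P4ha1) the higher. Among the 14777 tested genes, 3644 had the lower change in NRK-52E and 2476 the higher. Besides those described above, Pfkfb1 differed by -1.72 (adjusted p = 0.00189, edgeR), and Hk1 by -0.23 (adjusted p = 0.0432), a difference that RLE scaling (adjusted p = 0.119), DESeq2 (adjusted p = 0.0764) and 13 of the 23 fits leaving out a replicate did not call. With sample group as a block the number was 18 (44.9% of all genes), with Pfkfb4 added (-1.01, adjusted p = 0.0425). Of the 17, Egln3, Adm and Ndrg1 rest on the reads of a near-absent gene in NRK-52E.

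Already at pH 7.4 the lines differed in 27 of 33 members, where 68.8% of all tested genes differed. Of the 27, 20 were lower in NRK-52E and 7 higher. The 20 include Slc2a3, Egln3, Adm and Ndrg1, each with a median under 1 FPM in NRK-52E. These entered the test through their reads in NRK-49F, so their direction was fixed in advance, and they are part of the members' median below. Among the 14777 tested genes, 5004 were lower and 5166 higher. The median log2 ratio of NRK-52E to NRK-49F was -0.50 for the members and 0.02 for all genes. No sample group held both lines, so line and sample group cannot be told apart in the comparisons between lines. All 5 members of lower glycolysis were lower in NRK-52E, Gapdh by a log2 ratio of -1.96 (standard error 0.15), and 5 of the 7 of upper glycolysis, Pfkp by -4.16 (standard error 0.27). Higher in NRK-52E were Slc2a1 (1.01, adjusted p = 1.88e-08, edgeR), Pfkfb3 (1.94, adjusted p = 1.31e-09, edgeR), Pfkfb2, Ankrd37, P4ha2, Bnip3l and the uncertain Aldoa. Slc2a1 was 2.02-fold and Pfkfb3 3.83-fold higher in NRK-52E. Neighbours that did not differ beyond their spread were Aldoc, Egln1, G6pc3, Pfkfb4, Bnip3 and Tigar.

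Both sample groups of NRK-52E responded with different strength in some of the members. The change differed between groups 3 and 1 for 8 of 33 members, where 10.6% of all tested genes differed. For all 8, Slc2a3, Pfkl, Pfkm, Pfkp, Eno2, Pfkfb4, Bnip3l and P4ha2, the change was lower in group 3, as for 1015 of the 1573 genes that differed. The call of Slc2a3 rests on few reads, with 1, 2 and 0 counts in group 3 at pH 6.0. At pH 7.4 it had 6 to 20 counts per NRK-52E library. Pfkm at pH 6.0 was at 67.6, 79.1 and 80.7 FPM in group 1 and at 39.6, 39.6 and 42.6 FPM in group 3, while at pH 7.4 all 6 samples lay between 125 and 147 FPM. Its log2 fold change was -0.72 in group 1 and -1.75 in group 3 (difference -1.03, standard error 0.12, adjusted p = 1.94e-05, edgeR). Pfkl had -0.71 and -1.74 (difference -1.03, adjusted p = 0.00519, edgeR), so both fell in each group. Eno2 rose in both groups, by 0.89 and 0.29 (difference -0.61, adjusted p = 0.0026, edgeR). At pH 6.0 it was at 212, 221 and 199 FPM in group 1 and at 95.2, 94.0 and 110 FPM in group 3. At pH 7.4 the samples of both groups ranged from 72.4 to 121 FPM.

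For the other members in this set, the call itself depended on the group. Pfkp had a log2 fold change of 0.20 in group 1 (adjusted p = 0.181) and of -0.97 in group 3 (adjusted p = 1.57e-05, edgeR). At pH 6.0 it was at 5.47, 6.61 and 6.84 FPM against 1.94, 1.54 and 1.92 FPM. The groups were already apart at pH 7.4, in percent of the NRK-49F mean at pH 7.4. Pfkp was then at 7.27%, 6.30% and 6.54% in group 1 and at 4.89%, 3.93% and 4.14% in group 3. Pfkfb4 had -0.27 and -2.04, P4ha2 0.25 and -0.34 and Bnip3l -0.04 and -0.45, and each passed the threshold in group 3 alone. Of the members called over both groups of NRK-52E, G6pc3 (0.19, adjusted p = 0.303), Hif1a (0.26, adjusted p = 0.0627) and Egln1 (-0.29, adjusted p = 0.0973) did not pass it within group 1. Tpi1 (-0.34, adjusted p = 0.122) did not pass it there either. Pgam1 (0.08, adjusted p = 0.627) and Pfkfb1 (-0.86, adjusted p = 0.137) did not pass it within group 3. Nor did the near-absent Egln3 (adjusted p = 0.0838), Adm (adjusted p = 0.0759) and Ndrg1 (adjusted p = 0.352, edgeR). In NRK-49F, Hk2, Aldoa and P4ha2 did not pass it within group 4, Aldoc and Tpi1 within group 6, and Pkm and Pfkfb3 within either. Aldoc (2.66 and 2.52), Pfkfb3 (1.11 and 1.21), P4ha1 (0.95 and 1.18), Vegfa (0.65 and 0.96), Hk2 (1.43 and 2.13) and Bnip3 (0.62 and 1.22) rose in each group, and their difference did not pass the threshold. In NRK-49F, 0 of 33 members differed between groups 6 and 4 by edgeR's quasi-likelihood test, where 0% of all genes did, although 596 genes had an unadjusted p under 0.05. DESeq2 called 10 genes and the likelihood ratio test 7, none of them a member. Pfkp rose by 1.87 in group 4 and by 1.80 in group 6, and Vegfa by 1.37 and 1.53.

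**Figure D4:**
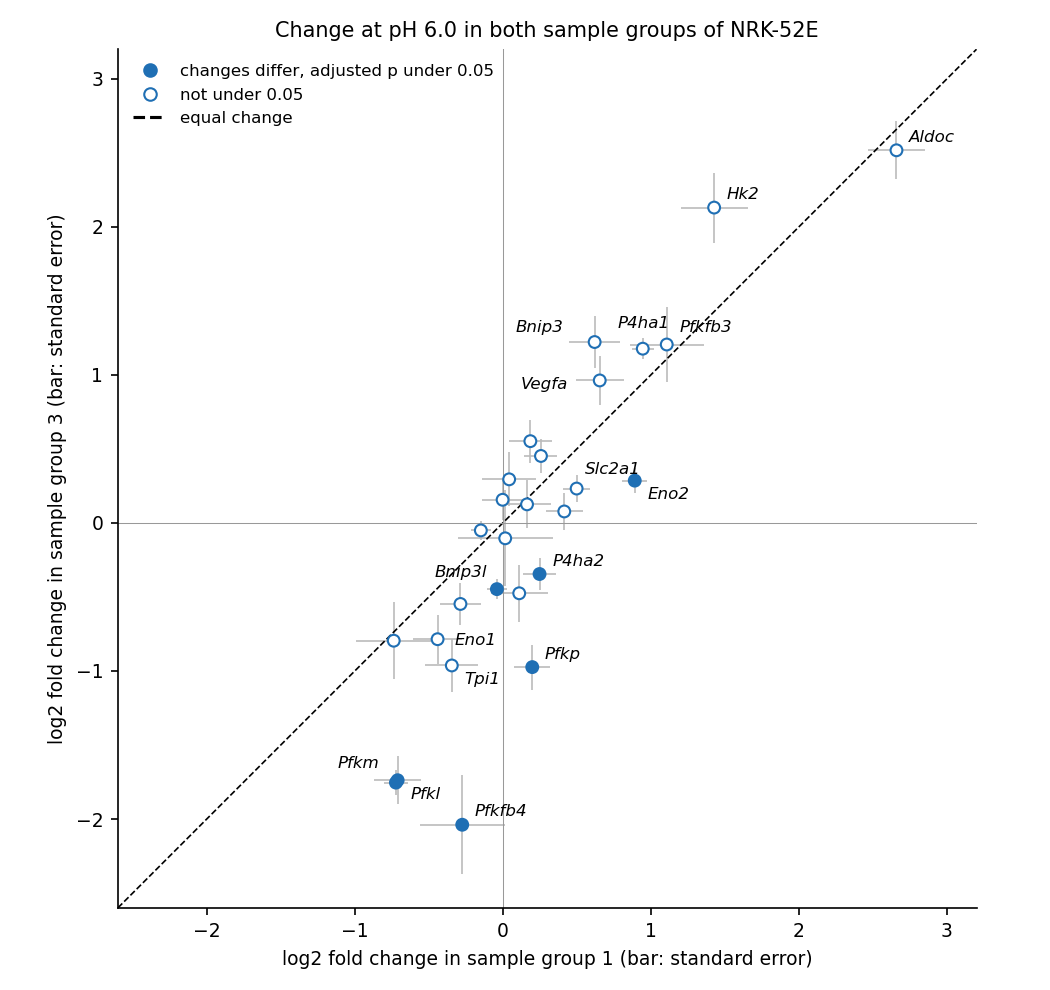
Log2 fold change from pH 7.4 to pH 6.0 in sample group 1 (x axis) and sample group 3 (y axis) of NRK-52E for the 27 tested members with a mean of at least 2 FPM at pH 7.4, with standard errors as bars and a dashed line of equal change. The 7 filled points, for which both changes differed (Slc2a3 is below 2 FPM and not drawn), all lie below the line, with Pfkl and Pfkm near -0.71 in group 1 and near -1.74 in group 3.

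Other genes of the pathway were described by a pair of lists. Of 32 further genes of glycolysis, gluconeogenesis and glycogen, 23 were tested, of which 8 rose and 11 fell in NRK-52E and 7 rose and 3 fell in NRK-49F. Their median log2 fold changes were -0.20 and 0.13, against -0.12 and 0.00 for all genes, of which 24.7% rose and 36.6% fell in NRK-52E and 14.5% rose and 14.4% fell in NRK-49F. The largest rises in NRK-52E were those of Pc (pyruvate carboxylase, from 12.5 to 50.4 FPM, log2 fold change 2.01), Slc2a6 (a lysosomal sugar transporter, 1.43) and Adpgk (a kinase of glucose that uses ADP, 1.36). The lowest fitted values were those of Ldhb (-2.25), which was at most 1.04 FPM in every NRK-52E library and entered the list through its 55.5 FPM in NRK-49F, Slc2a10 (-1.35) and Pygl (liver glycogen phosphorylase, -0.87). In NRK-49F, Pgm1 (phosphoglucomutase, from 106 to 199 FPM, 0.91), Pck2 (0.62) and Pc (0.57) rose most. The lowest fitted values there were those of Pygl (-2.64), which was at most 1.44 FPM in NRK-49F and entered through NRK-52E, Slc2a10 (-0.67) and Eno3 (muscle enolase, -0.53). Ldha, the lactate dehydrogenase subunit induced by HIF and named here after its values were seen, fell in NRK-52E from 398 ± 63.5 to 223 ± 45.6 FPM (-0.83, adjusted p = 3.06e-05, edgeR) and was at 691 ± 119 and 762 ± 163 FPM in NRK-49F (0.14, adjusted p = 0.527).

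Of 44 further genes linked to hypoxia, 37 were tested, of which 10 rose and 13 fell in NRK-52E and 14 rose and 6 fell in NRK-49F, with median log2 fold changes of -0.18 and 0.09, to be read against the same shares and medians of all genes. In NRK-52E the largest rises were those of Stc2 (a secreted glycoprotein, 1.41), Jmjd6 (1.12) and Ero1a (an oxidase of protein folding, from 63.9 to 135 FPM, 1.08), and the largest falls those of Arnt2 (a partner of HIF alpha subunits, -2.11), Loxl2 (-1.62) and Ca9 (-1.37). Ca9, the carbonic anhydrase at the cell surface that is a classical HIF target, fell from 1319 ± 104.9 to 510 ± 250 FPM in NRK-52E, but was higher at pH 6.0 in NRK-49F, at 142 ± 10.8 and 240 ± 6.43 FPM (0.76, adjusted p = 0.0116, edgeR). The difference for Ca9 was -2.13 (adjusted p = 6.18e-06, edgeR). In NRK-49F the largest rises were those of Hmox1 (heme oxygenase, from 14.8 to 38.9 FPM, 1.39), Hilpda (a lipid droplet protein, from 37.1 to 89.3 FPM, 1.27) and Bhlhe41 (a transcriptional repressor, 1.02). The largest falls were those of Edn1 (endothelin, from 10.96 to 1.23 FPM, -3.16), Lox (-1.64) and Loxl2 (-1.01), both enzymes that cross-link collagen. All these passed the adjusted threshold in edgeR's quasi-likelihood test.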

How the data were processed

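Poly(A)-selected RNA of 23 samples had been sequenced by the study, aligned with HISAT2 and counted per gene with featureCounts, with multi-mapping reads included, and the authors deposited the table of raw read counts. The submitters' processing notes name rn6 and the study's methods rn7, so no coordinates of the table are given here. The strand setting was not given in the sources used here, so overlapping and antisense genes cannot be told apart. A further 13 columns matched no sample and were not used. Genes were kept by filterByExpr (minimum count 10, minimum total 15), scaled by TMM and tested in edgeR 4.0.16 with a quasi-likelihood fit over all 23 samples and 4 conditions, or with sample groups as separate conditions, and adjusted p-values under 0.05 were called. The code was tested on simulated data. Members and lists were chosen with earlier results of these data known. All members were described, and of the 2 further lists the 3 genes with the largest change in each direction that passed the threshold, with at least 5 FPM on average. Nothing in the labels says that replicates were separate cultures, so p-values measure the spread between these samples. Every pair of replicates differed by more than sampling noise. Floors of 3 counts cover counting error only. Alternatives were DESeq2 1.42.0, RLE scaling, other filters and thresholds, sample group as a block, single lines and sample groups, and leaving out each replicate.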

Additional observations from a re-analysis of the deposited data

Results flagged for a closer look

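In 138 groups of 5 or 6 samples, 23 values lay far from the rest, judged by the gap to the nearest sample relative to the range of the group, where chance alone gives about 1 in 20 groups. Replicate A035 of NRK-52E at pH 7.4 held 7 of them, with Gpi at 523 FPM, Pfkl at 128, Pfkm at 147, Pgam1 at 385, Eno1 at 784 and Pkm at 948 FPM as the highest values and Pfkfb3 at 18.6 FPM as the lowest. Replicate A042 of NRK-49F at pH 6.0 was highest in Tigar (19.7 FPM), G6pc3 (132 FPM), Ankrd37 (6.27 FPM) and Epas1 (0.255 FPM). In NRK-49F at pH 7.4, replicate A052 was apart in Pfkm (225 FPM), Aldoa (0.300 FPM) and Pfkfb1 (6.46 FPM), A041 in G6pc3 (95.9 FPM) and Fbp1 (0.203 FPM), A051 in Hk1 (158 FPM) and A039 in Egln3 (26.7 FPM). In NRK-52E the others were Hk2 in A026 (33.97 FPM), Egln3 in A021 (0.560 FPM), Adm in A025 (0.0546 FPM), Epas1 in A036 (0.0524 FPM) and Fbp1 in A038 (0.148 FPM), the last 3 at pH 6.0 and resting on 1 to 3 counts.

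The change with pH differed between the lines for 17 members, and for 41.4% of all tested genes (change in NRK-52E minus change in NRK-49F, log2, edgeR's quasi-likelihood test). It was higher in NRK-52E for Aldoc (2.01), Hk2 (1.14), P4ha1 (0.98) and Hif1a (0.54). It was lower for Slc2a1 (-0.54), Hk1 (-0.23), Pfkl (-1.33), Pfkm (-1.36), Pfkp (-1.98), Tpi1 (-1.07), Gapdh (-0.54), Eno1 (-0.62), Pfkfb1 (-1.72), Vegfa (-0.66), Egln3 (-5.20), Adm (-5.85) and Ndrg1 (-2.64), and without replicate A021 that of Ndrg1 was -1.27 (adjusted p = 0.201). Between sample groups 3 and 1 of NRK-52E the change differed for Slc2a3 (-2.88), Pfkl (-1.03), Pfkm (-1.03), Pfkp (-1.17), Eno2 (-0.61), Pfkfb4 (-1.76), Bnip3l (-0.41) and P4ha2 (-0.59), and that of Slc2a3 lost the call without A023, A026, A034, A035, A036 or A038.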

How the results depend on the processing

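No called change of a member reversed its direction under the alternatives run. When the log2 fold change had to exceed 1 in size by the test itself, there remained 5 members in NRK-52E (13.4% of all genes). Of these, 2 were higher and 3, all near absent there, were lower. In NRK-49F, 2 members remained (2 higher, 0 lower, 1.99% of all genes). The change differed between the lines for 4 (Pfkp, Aldoc and the near-absent Egln3 and Adm, 6.54% of all genes). At pH 7.4, 9 members differed (25.5% of all genes), among them Slc2a3, Egln3, Adm and Ndrg1, which entered the test through NRK-49F. Between sample groups of NRK-52E, 0 differed (0.088% of all genes). With adjusted p under 0.01, 6 members remained called in NRK-49F (6 higher, 0 lower, 18% of all genes) and 5 between sample groups of NRK-52E (4.72% of all genes). Within sample group 4, 8 members changed (23% of all genes) and 0 were lower. Leaving out 1 replicate at a time gave 0 to 1 members lower in NRK-49F, with 0 without A039, A041, A054 or A056. The cause was not tested beyond the smaller number of samples or the stricter threshold. In NRK-49F, Gpi, Gapdh and Bnip3 passed the threshold without some single replicates, among them A052 for all 3. With each line fitted alone, the median log2 fold change of all genes in NRK-52E moved from -0.12 by 0.119. Replicate codes are not shared between the groups and were not paired. Sample group as a block, additive in the fit, gave 23 members in NRK-52E (63.6% of all genes), 16 in NRK-49F (33.4%) and 18 between the lines (44.9%). Depth limited Fbp1 and Epas1 in both lines and Egln3, Adm, Ndrg1 and Slc2a3 in NRK-52E.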
